A study of Mesocricetus auratus with 36 samples.

Results

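Hamsters 13 h into a torpor bout were compared with hamsters kept on a long photoperiod, with RNA laser-captured from the ependymal lining of the hypothalamus. The difference between these groups covers both the change of season and torpor. The comparison was defined by the sample titles and holds 12 of the 36 libraries of the study, 6 torpid and 6 long photoperiod, with 6 brains per group in the protocol. All animals were male golden hamsters (Mesocricetus auratus), a seasonal hibernator that enters torpor on short days in the cold. The long photoperiod animals had 14 h of light per day at 22 °C and are labelled as reproductive and 8 months old. The protocol has such animals taken both at the start and at the end of the experiment, so their age is less certain than the label. The torpid animals had 10 h of light at 8 °C, are labelled as 8 to 12 weeks on the short photoperiod and 6 months old, and had been through 3 cycles of torpor and arousal. Photoperiod, ambient temperature, age and body temperature all differ between these 2 groups and cannot be told apart by comparing them alone. Late pre-hibernation animals (same light, ambient temperature, weeks and labelled age as the torpid ones, before any torpor) and interbout euthermic animals (23 h into the warm interval between bouts) were used to divide the difference into steps. No clock time of sampling was found in the sources used.

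Tanycytes, for which this lining is enriched, are ependymal glia at the base of the third ventricle whose long processes reach into the hypothalamus. They are known for passing the day length signal on: thyrotropin from the pars tuberalis of the pituitary acts on them and sets the balance of the deiodinases Dio2, which activates thyroid hormone, and Dio3, which inactivates it. They also take up and convert vitamin A and respond to glucose, lipids and hormones. Torpor is a controlled fall of metabolism and body temperature, in which transcription is slowed across the body.

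Sequencing depth was alike in both groups. The long photoperiod libraries held 17986621 to 26853166 counts and the torpid libraries 19125754 to 26455533 (exact permutation test, two-sided, p = 0.855, adjusted over 4 library measures p = 0.855). Ribosomal RNA took 0.279 to 0.826% and 0.219 to 0.486% of the counts (adjusted p = 0.329), and no library of either group was rich in it. The labelled tissue was checked against cell type markers. Tanycyte markers summed to between 2909 and 3795 CPM, read counts scaled to the size of the library, on long photoperiod and 2388 and 3925 CPM in torpor, and motile cilia genes of ependymal cells to between 9077 and 13494 CPM and 10224 and 13077 CPM. The sums of neuron markers (693 to 812 CPM and 569 to 974 CPM), astrocyte markers, oligodendrocyte markers and microglia markers overlapped between the groups as well. In bulk tissue fewer cells of a type and less RNA per cell cannot be told apart.

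Some libraries stood apart within their group. Torpid 5 and 6 held the highest torpid levels of many genes that rose. They were the top pair of the 6 torpid libraries in 384 of the 774 genes that rose (49.6%), against 16.9% of all genes tested. Long photoperiod 5 had 11.5 CPM of Dio2 against 35.4 to 68.4 CPM in the other 5, and 11.8 CPM of Lrat against 59.9 to 130 CPM, levels within the torpid range. Results were therefore also computed without torpid 5 and 6 together, and without each library alone. The first of these was chosen after seeing the data.

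In all, 774 of 17926 genes tested rose (4.32%) and 848 fell (4.73%), together 1622 (9.05%), at an adjusted p under 0.05 by edgeR's quasi-likelihood test. Of these, 250 rose and 148 fell by at least 2-fold. The torpid libraries were all above the long photoperiod libraries in 655 genes (3.65%) and all below in 738 (4.12%), and 941 of the genes that passed had no overlap of the groups. Without torpid 5 and 6, 333 genes rose and 530 fell, of 18429 tested. Without torpid 6 alone 513 rose. Without 3 libraries of other groups that were rich in ribosomal RNA and enter the shared fit, 1680 rose and 2107 fell, and they held all 1622 genes in the same direction. Where a level is given before and after a change, it is the group median, with the range of the 6 libraries in parentheses. Counts of called list members below are to be set beside the 9.05% called over all genes tested.

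**Figure D1:**
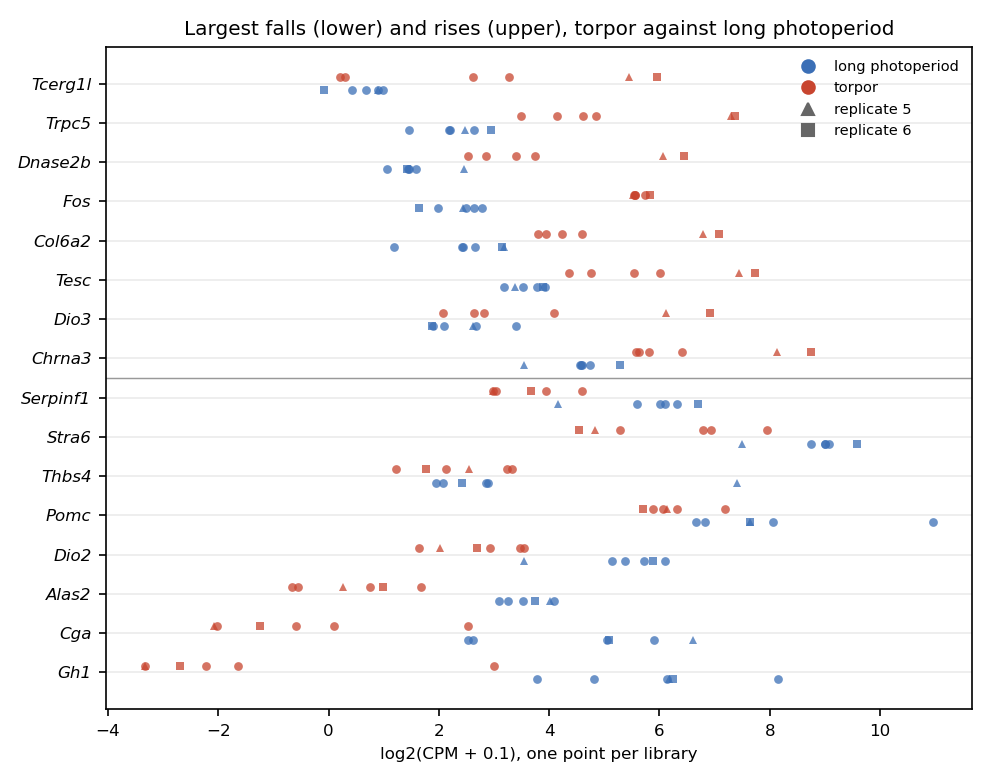
Each point is 1 library, at log2(CPM + 0.1), for the 8 largest falls and the 8 largest rises among genes that passed, had an informative name and had a mean log2 CPM no lower than 1; blue, long photoperiod (drawn lower in each row); red, torpor; triangles and squares, replicates 5 and 6. Torpid 5 and 6 are the highest torpid points of Trpc5, Tesc, Chrna3, Col6a2, Dio3, Dnase2b and Tcerg1l, while the 6 torpid points of Fos lie close together, and the fall of Thbs4 rests on long photoperiod 5.

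Thyroid hormone genes changed in the hormone's activation and in its receptor, while the rise of the inactivating Dio3 depended on torpid 5 and 6. Dio2 ranged over 11.5 to 68.4 CPM (median 47) on long photoperiod and 3.02 to 11.6 CPM (median 6.91) in torpor. Long photoperiod 5 overlapped with the torpid libraries, and the other 5 lay above them all. The log2 fold change (± SE) was -2.62 ± 0.41 (adjusted p = 3.76e-05), and without long photoperiod 5 it was -2.84 (adjusted p = 6.34e-06). Thrb, the thyroid hormone receptor beta, ranged over 27 to 44.6 CPM (median 31.3) on long photoperiod and 49.6 to 143 CPM (median 74.4) in torpor, without overlap. It rose by 1.43 ± 0.24 (adjusted p = 0.000121) and by 0.99 (adjusted p = 0.00925) without torpid 5 and 6. Hr, a corepressor that binds the thyroid hormone receptor, fell from 36.1 CPM (28 to 41.7) to 18.9 CPM (14 to 27.2), again without overlap (-0.84 ± 0.17, adjusted p = 0.00102).

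Dio3 was spread widely in torpor. On long photoperiod it ranged over 3.58 to 10.4 CPM (median 5.11). Torpid 5 and 6 were at 69.2 and 121 CPM and the other 4 torpid libraries at 4.11, 6.94, 6.1 and 17 CPM, of which 3 were within the long photoperiod range. Its rise of 2.71 ± 0.66 (adjusted p = 0.00711) was lost without torpid 6 (adjusted p = 0.061) and stood at 0.56 (adjusted p = 0.706) without torpid 5 and 6. Of the 21 thyroid genes tested 3 rose (Thrb, Dio3 and the receptor partner Rxra) and 2 fell (Dio2 and Hr), with a median log2 fold change of 0.06 beside 0.009 over all genes tested. The call of Rxra (0.28 ± 0.09, adjusted p = 0.0352) was lost without 1 library in 9 of 12 cases (adjusted p up to 0.149, without torpid 6). The list had 3 called members without torpid 6 and 3 without torpid 5 and 6.

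Vitamin A uptake and storage genes were among the falls. Stra6, the cell surface receptor for retinol-binding protein, ranged over 181 to 769 CPM (median 510.3) on long photoperiod and 23.3 to 248 CPM (median 74.9) in torpor. Long photoperiod 5 (181 CPM) lay below torpid 3 (248 CPM), and all other long photoperiod libraries lay above the torpid ones. The log2 fold change of Stra6 was -2.36 ± 0.50 (adjusted p = 0.00189). Lrat, which esterifies retinol for storage, ranged over 11.8 to 130.3 CPM (median 81.2) and 10.2 to 24.2 CPM (median 16.4), with long photoperiod 5 alone inside the torpid range (-2.15 ± 0.38, adjusted p = 0.000196). Without long photoperiod 5 the changes were -2.54 (adjusted p = 0.00112) for Stra6 and -2.39 (adjusted p = 6.18e-06) for Lrat. The retinoic acid carrier Crabp1 (-0.99 ± 0.24), the retinol-oxidising enzyme Rdh10 (-0.72 ± 0.20) and the receptor Rarb (-1.16 ± 0.22) fell too.

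In the other direction moved Dhrs3, which turns retinal back into retinol (0.65 ± 0.15, adjusted p = 0.00351), and the receptor Rara (0.38 ± 0.11, adjusted p = 0.0196). The rise of Rara was lost without 1 library in 5 of 12 cases (adjusted p up to 0.0735, without torpid 3). In all, 2 of 19 retinoid genes rose and 6 fell, with a median of -0.35, and 5 passed without torpid 5 and 6. Of the 23 genes of thyrotropin signalling, photoperiod response and prostaglandins, none rose and 3 fell (median -0.45). They were Ptges, a prostaglandin E synthase (-1.76 ± 0.45), Hpgd, which inactivates prostaglandins (medians of 1.82 and 0.802 CPM), and Eya3, a coactivator of the thyrotropin beta gene in the pars tuberalis (-0.45 ± 0.12). Eya3 ranged over 21.6 to 27.6 CPM (median 24.8) and 14 to 21.2 CPM (median 18.7) without overlap. The call of Hpgd was lost without 1 library in 10 of 12 cases (adjusted p up to 0.102, without torpid 6), and without torpid 4 the list had 5 called members. Tshr, the thyrotropin receptor, did not pass (medians of 72 and 102 CPM, adjusted p = 0.158).

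Among the 8 largest rises with a mean log2 CPM no lower than 1, Trpc5, Tcerg1l, Dnase2b, Col6a2, Tesc and Chrna3 also passed as higher in late pre-hibernation than on long photoperiod, while Fos (0.36, adjusted p = 0.653) and Dio3 (1.84, adjusted p = 0.134) did not pass in that step. Trpc5, a calcium-permeable cation channel, ranged over 2.66 to 7.59 CPM (median 4.96) on long photoperiod and 11.1 to 165 CPM (median 26.7) in torpor. Every torpid library was above every long photoperiod library, and torpid 5 and 6 (158 and 165 CPM) were far above the other 4. The rise was 3.71 ± 0.58 (adjusted p = 5.87e-05) and 1.99 (adjusted p = 0.00403) without torpid 5 and 6. Chrna3, a nicotinic acetylcholine receptor subunit, ranged over 11.5 to 38.8 CPM (median 24) and 47.3 to 429 CPM (median 70.2), also without overlap (2.67 ± 0.47, adjusted p = 0.000217, and 1.25, adjusted p = 0.0289 without torpid 5 and 6). Chrnb4, which pairs with Chrna3 in nicotinic receptors and was picked after its values were seen, ranged over 5.86 to 15.2 CPM (median 11) and 20.2 to 176 CPM (median 32.5), a log2 change of 2.66 ± 0.44, and was at 1.40 (adjusted p = 0.00845) without torpid 5 and 6.

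The same 2 torpid libraries led Tesc, a calcium-binding protein (2.88 ± 0.46, and 1.67, adjusted p = 0.00426 without them), and Col6a2, a collagen VI chain (3.11 ± 0.57, and 1.55, adjusted p = 0.0419 without them). They also led Dnase2b, an acid nuclease (3.39 ± 0.59, and 1.59, adjusted p = 0.0302 without them), and Tcerg1l, a relative of a transcription elongation regulator (3.76 ± 0.82). The torpid libraries of Tesc, Col6a2 and Dnase2b all lay above the long photoperiod ones. For Tcerg1l, torpid 1 and 3 were within the long photoperiod range, and without torpid 5 and 6 the change was 1.55 (adjusted p = 0.239). From long photoperiod to late pre-hibernation the log2 differences were 4.43 (Trpc5), 3.09 (Chrna3), 3.27 (Tesc), 3.49 (Col6a2), 3.39 (Dnase2b) and 3.71 (Tcerg1l), with adjusted p from 1.41e-05 to 0.0049. From late pre-hibernation to torpor they were -0.72, -0.42, -0.40, -0.38, 0.00 and 0.05, and none passed. These steps and the whole difference share libraries, so their values are side by side descriptions and not separate evidence.

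Among large falls, Serpinf1, a secreted serpin also named pigment epithelium-derived factor, ranged over 17.8 to 104 CPM (median 66.6) on long photoperiod and 7.75 to 24.2 CPM (median 10.4) in torpor (-2.33 ± 0.41, adjusted p = 0.000203). Long photoperiod 5 (17.8 CPM) was the 1 that overlapped with the torpid libraries, and without it the change was -2.54 (adjusted p = 4.99e-05). Thbs4, a thrombospondin of the extracellular matrix, was at 169 CPM in long photoperiod 5 and at 3.75 to 7.29 CPM in the other 5, against 2.23 to 9.95 CPM (median 5.01) in torpor. Its change of -2.49 ± 0.81 (adjusted p = 0.0467) rested on that library and was 0.07 (adjusted p = 0.978) without it.

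Messengers of 5 small heat shock proteins, Cryab, Hspb1, Hspb2, Hspb6 and Hspb7, rose, while Hspb8, of the same family, did not pass (0.33 ± 0.15, adjusted p = 0.18). Cryab ranged over 228 to 341 CPM (median 318) on long photoperiod and 506 to 1653 CPM (median 1118) in torpor, with no overlap (1.90 ± 0.23, adjusted p = 9.5e-07). Its step to late pre-hibernation was 2.06, and from there to torpor -0.16 (adjusted p = 0.828). Hspb1 went from 42.1 CPM (30.9 to 53.2) to 137 CPM (41.8 to 282), a log2 change of 1.92 ± 0.30, and torpid 3 (41.8 CPM) overlapped with the long photoperiod libraries. Hspb2 (1.26 ± 0.19), Hspb6 (1.54 ± 0.20) and Hspb7 (2.45 ± 0.35), of the same family, and the transcription factor Hsf2 (0.80 ± 0.14) rose with all torpid libraries above the long photoperiod ones. Without torpid 5 and 6 Hspb1 was at 1.26 (adjusted p = 0.00363) and Hspb7 at 1.48 (adjusted p = 0.000766). Their steps to late pre-hibernation were 2.07 (Hspb1), 1.31 (Hspb2), 1.65 (Hspb6), 2.62 (Hspb7) and 0.92 (Hsf2).

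Dnajb5, a cochaperone, rose at another step. It ranged over 9.37 to 13.7 CPM (median 11.7) and 24.8 to 62.2 CPM (median 37.3), a log2 change of 1.75 ± 0.21 (adjusted p = 7.46e-07). From long photoperiod to late pre-hibernation the difference was 0.23 (adjusted p = 0.739) and from there to torpor 1.52 (adjusted p = 9.65e-06). The cochaperones Dnajb1 (-0.48 ± 0.15) and Dnajb9 (-0.45 ± 0.14) fell. The call of Dnajb1 was lost without 1 library in 5 of 12 cases (adjusted p up to 0.0792, without torpid 1), and that of Dnajb9 without 1 library in 8 of 12 cases (adjusted p up to 0.177, without long photoperiod 1). Of the 37 heat shock and chaperone genes 7 rose and 2 fell (median 0.08), and 7 passed without torpid 5 and 6. The abundant constitutive chaperone Hspa8 was at a mean of 2697 CPM on long photoperiod and 2420 CPM in torpor (adjusted p = 0.691).

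**Figure D2:**
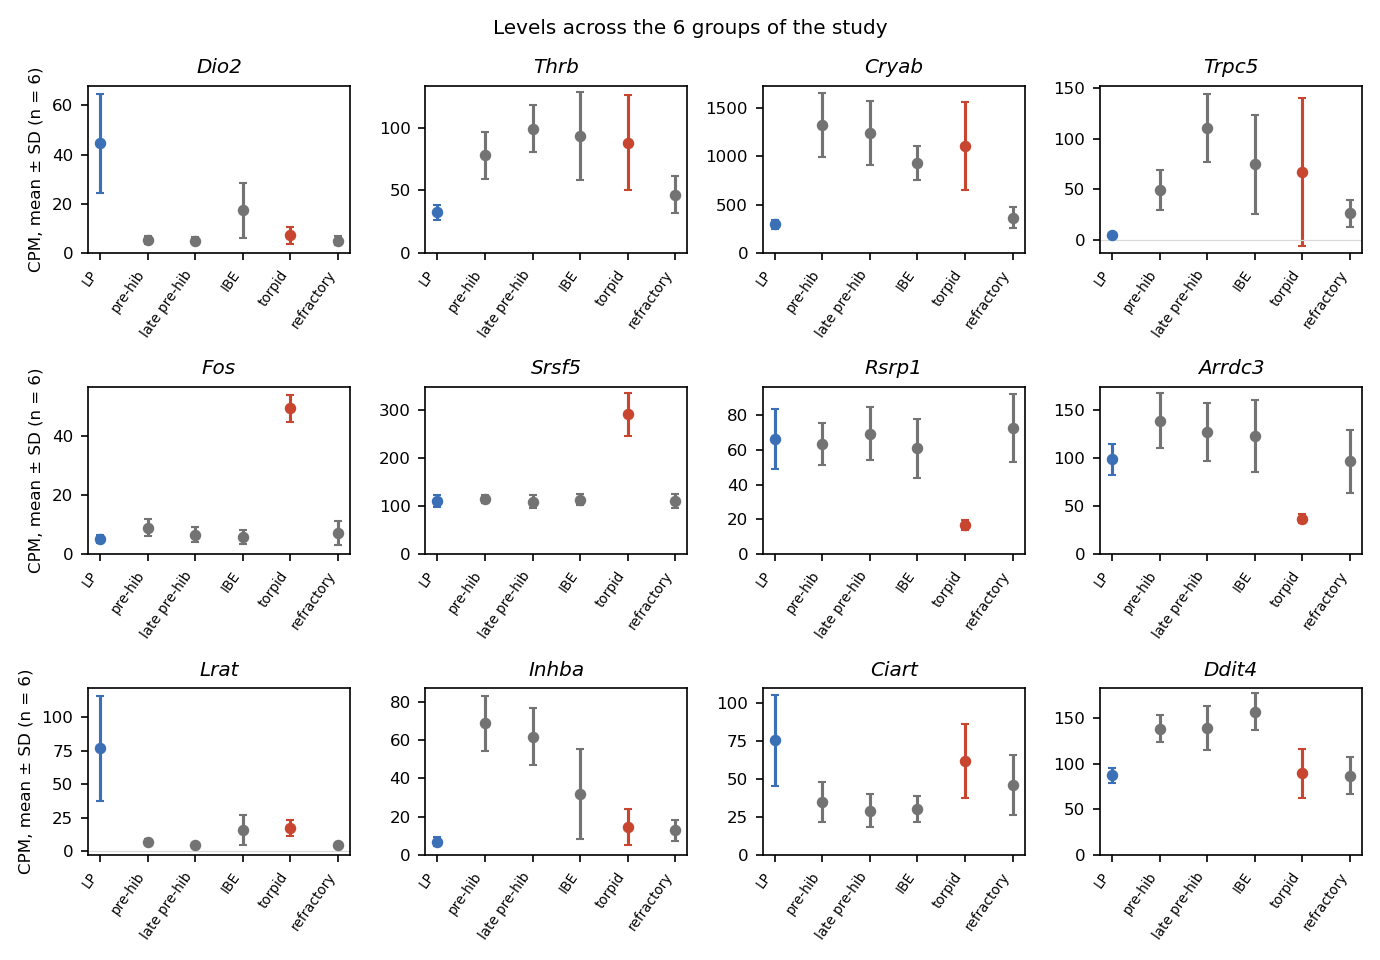
Mean CPM ± SD of 6 animals in each of the 6 groups of the study, in the order of the season; blue, long photoperiod (LP); red, torpor; IBE, interbout euthermia. Dio2, Thrb, Cryab and Trpc5 differ from long photoperiod already in the groups on short days before torpor, Fos and Srsf5 are high and Rsrp1 and Arrdc3 low in torpor, and Inhba, Ciart and Ddit4 stand in torpor between or near their long photoperiod levels and apart from late pre-hibernation.

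Immediate early genes are transcribed quickly after a stimulus, and 12 of the 35 tested rose in torpor. Fos ranged over 3.02 to 6.74 CPM (median 5.42) on long photoperiod and 45.8 to 56.9 CPM (median 46.9) in torpor, a gap with no library inside it. The rise was 3.27 ± 0.28 (adjusted p = 6.17e-10). Zfp36, which binds messengers and marks them for decay, ranged over 16.1 to 22.1 CPM (median 18.7) and 50.6 to 85 CPM (median 53.7), a log2 change of 1.64 ± 0.16 (adjusted p = 7.96e-09). Egr1 ranged over 0.811 to 3.4 CPM (median 1.23) and 3.8 to 17.7 CPM (median 6.31), and torpid 2 was the highest (2.21 ± 0.41, adjusted p = 0.000292). Jun (1.94 ± 0.36) and Junb (2.16 ± 0.44), partners of Fos in the AP-1 transcription factor, were likewise highest in torpid 2, and all torpid libraries of both lay above the long photoperiod ones.

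Further rises were in Ccn1, a secreted matrix protein (1.28 ± 0.20), Csrnp1, a nuclear protein (1.05 ± 0.17), the AP-1 member Fosl2 (1.05 ± 0.21), the antiproliferative gene Btg2 (0.70 ± 0.10), Gadd45g (1.52 ± 0.41), Klf10 (0.57 ± 0.14) and Atf3 (0.77 ± 0.21, a call lost without 1 library in 3 of 12 cases, adjusted p up to 0.0652, without torpid 6). Btg1 (-0.79 ± 0.18) and the nuclear receptor Nr4a3 (-0.67 ± 0.21) fell, and the call of Nr4a3 was lost without 1 library in 6 of 12 cases (adjusted p up to 0.139, without long photoperiod 1). That makes 12 of 35 genes higher and 2 lower, with a median of 0.48, and 11 passed without torpid 5 and 6. Fos, Zfp36 and Egr1 had steps of 0.36, 0.26 and -0.11 from long photoperiod to late pre-hibernation, none of which passed, and of 2.92, 1.38 and 2.33 from there to torpor, all of which passed (highest adjusted p 0.000334). Dusp1, a phosphatase that switches MAP kinases off and is itself an early gene, ranged over 66.3 to 89.5 CPM (median 77.2) and 128 to 191 CPM (median 159) without overlap (1.04 ± 0.23, adjusted p = 0.00208). Of the 26 MAP kinase feedback genes, Dusp1 and Dusp8 (1.20 ± 0.25) rose and Spred1 (-0.55 ± 0.15) and Sik1 (-1.18 ± 0.35) fell. Without long photoperiod 1 only 2 of these 4 passed, and without it Spred1 had adjusted p = 0.0699 and Sik1 0.298, at a log2 change of -0.60.

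Messenger RNA of splicing factors moved sharply and with little spread. Srsf5, a serine and arginine rich splicing factor, ranged over 94.4 to 132 CPM (median 109.5) on long photoperiod and 239 to 344 CPM (median 284) in torpor. The change was 1.40 ± 0.11 and had an adjusted p of 3.88e-11. Rsrp1, another serine and arginine rich protein, went the other way, from 63.6 CPM (45.4 to 87.3) to 15.5 CPM (14.2 to 21.3), a log2 change of -1.99 ± 0.19 (adjusted p = 9.08e-09). Neither gene had overlapping groups. Srsf6 (0.64 ± 0.13), the RNA helicase Ddx5 (0.86 ± 0.18) and Clk4, a kinase that phosphorylates such splicing factors (0.58 ± 0.14), rose, and Rsrc2 fell (-0.50 ± 0.11). Each of these 6 genes differed by less than 0.1 from long photoperiod to late pre-hibernation (-0.02, 0.06, 0.06, 0.04, -0.06 and 0.05 in the order named), and from there to torpor by 1.41, -2.06, 0.58, 0.82, 0.64 and -0.56.

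Rbm3, the cold-inducible RNA-binding protein, ranged over 199 to 232 CPM (median 210.5) and 267 to 392 CPM (median 308), with no overlap. Its rise of 0.60 ± 0.18 passed (adjusted p = 0.0324), but the call was lost without 1 library in 8 of 12 cases (adjusted p up to 0.103, without torpid 6). It stood at 0.47 (adjusted p = 0.239) without torpid 5 and 6, and at 0.58 (adjusted p = 5.52e-06) without the 3 libraries rich in ribosomal RNA. In all, 5 of 30 cold-inducible and splicing genes rose and 2 fell (median 0.02), and 5 passed without torpid 5 and 6. Among RNA genes outside the lists, picked after their values were seen, Akap8l, a nuclear protein that binds RNA and chromatin, rose (medians of 56 and 128 CPM, 1.15 ± 0.14). Eif5, a translation initiation factor, fell from 389 CPM (374 to 409) to 197 CPM (178 to 219), a log2 change of -0.97 ± 0.11 (adjusted p = 3.44e-07), and Dcp2, which removes messenger caps, from 21.1 CPM (17.3 to 21.7) to 11 CPM (8.95 to 11.8), a log2 change of -0.94 ± 0.13. All 3 had separate groups.

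Clock genes moved singly. Cry1, a repressor of the clock loop, ranged over 15.5 to 20.1 CPM (median 17.9) on long photoperiod and 7.73 to 12.3 CPM (median 10.0) in torpor, with no overlap (-0.84 ± 0.14, adjusted p = 6.04e-05). Its step to late pre-hibernation was 0.00 and from there to torpor -0.83. Nr1d2, also a repressor, fell (-0.82 ± 0.19). Npas2, an activator of the loop, rose (0.48 ± 0.14, a call lost without 1 library in 6 of 12 cases, adjusted p up to 0.0976, without long photoperiod 5). Of 23 clock genes 2 rose and 2 fell (median 0.03). Nr1d1 was at 0.49 ± 0.20 (adjusted p = 0.122). It had a step of -0.65 to late pre-hibernation (adjusted p = 0.0574) and of 1.13 from there to torpor (adjusted p = 0.000284), and without torpid 5 and 6 it passed at 0.69 (adjusted p = 0.0369). Per1 was at 0.18 ± 0.21 (adjusted p = 0.707).

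Among fuel genes, members of the glycogen and fatty acid lists passed in both directions. Pygm, the muscle-type glycogen phosphorylase, ranged over 15.7 to 55.8 CPM (median 37.7) on long photoperiod and 66.3 to 255 CPM (median 100.3) in torpor, with no overlap (1.73 ± 0.32, adjusted p = 0.000317, and 1.18, adjusted p = 0.0165 without torpid 5 and 6). The phosphorylase kinase subunits Phka1 (0.70 ± 0.16) and Phkg2 (0.38 ± 0.09), which activate phosphorylase, and the liver-type phosphorylase Pygl (0.46 ± 0.12) rose. The call of Pygl was lost without 1 library in 2 of 12 cases (adjusted p up to 0.056, without torpid 2). Ppp1r3b (-0.98 ± 0.23) and Ppp1r3e (-0.55 ± 0.15), which bring a phosphatase to glycogen and favour its synthesis, fell. Thus 4 of 25 glycogen genes rose and 2 fell (median 0.11), and 4 passed without torpid 5 and 6.

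Cpt1b, the muscle-type carnitine palmitoyltransferase that admits fatty acids to mitochondria, ranged over 3.33 to 7.89 CPM (median 5.57) and 11.5 to 31 CPM (median 19.1) without overlap (1.86 ± 0.31, adjusted p = 7.47e-05). Lpl, the lipase that frees fatty acids from circulating triglyceride, fell from 122 CPM (99.8 to 186) to 28.2 CPM (19.6 to 82.2), a log2 change of -1.67 ± 0.29 (adjusted p = 0.000143), also without overlap. Its inhibitor Angptl4 rose (0.83 ± 0.26), a call lost without 1 library in 7 of 12 cases (adjusted p up to 0.118, without torpid 1). Cpt1c (0.63 ± 0.15) and the hormone-sensitive lipase Lipe (0.49 ± 0.16) rose, and the fatty acid carrier Fabp7 (-1.25 ± 0.29) and the lipid-sensing receptors Ppara (-0.64 ± 0.15) and Ppard (-0.36 ± 0.08) fell. The call of Lipe was lost without 1 library in 9 of 12 cases (adjusted p up to 0.148, without torpid 6). Of 45 fatty acid and ketone genes 4 rose and 4 fell (median 0.04), and 5 passed without torpid 5 and 6. The liver-type Cpt1a (0.22 ± 0.14, adjusted p = 0.405) and the pyruvate dehydrogenase kinase Pdk4 (0.04 ± 0.22, adjusted p = 0.955) did not pass.

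Of 36 genes of glucose and lactate use, Slc16a3, a lactate exporter, was the 1 that passed (medians of 10.2 and 12.3 CPM, adjusted p = 0.0495), and its call was lost whichever of the 12 libraries was left out. The called share of this list was 2.78%, below the 9.05% over all genes tested. The glucose transporter Slc2a1 (-0.10 ± 0.15, adjusted p = 0.797) and the lactate transporter Slc16a1 (0.10 ± 0.15, adjusted p = 0.81) did not pass. Insulin signalling genes fell in 4 of 34 cases and rose in 1 (median -0.07). The insulin receptor substrates Irs1 (medians of 14.6 and 8.64 CPM, -0.83 ± 0.16) and Irs2 (-0.84 ± 0.18) and the kinase subunit Pik3ca (-0.63 ± 0.13) had torpid libraries below every long photoperiod one. The fall of Rictor (-0.50 ± 0.16), of the second mTOR complex, was lost without 1 library in 9 of 12 cases (adjusted p up to 0.11, without torpid 2), and Tsc2, a brake on mTOR, rose (0.49 ± 0.11). For Irs1 the step to late pre-hibernation was -0.09 and from there to torpor -0.74, while for Irs2 the same steps were -1.42 and 0.57. Of 34 sterol and lipid synthesis genes, 1 rose and 2 fell, Insig2 (-0.39 ± 0.12) and Sc5d (-0.35 ± 0.11). That is 8.82% of the list, near the 9.05% over all genes tested. The calls of Insig2 and Sc5d were lost without torpid 6 or without long photoperiod 6, among others.

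Receptors and channels followed. Among 35 nutrient and hormone receptors 1 rose and 5 fell (median -0.10), and 2 passed without torpid 5 and 6. Gpr37l1, an orphan receptor of glia, ranged over 811 to 1258 CPM (median 1078) on long photoperiod and 435 to 668 CPM (median 607) in torpor, with no overlap (-0.93 ± 0.21, adjusted p = 0.00383). It was at -0.78 (adjusted p = 0.0634) without torpid 5 and 6. The insulin receptor Insr (-0.72 ± 0.17), the nucleotide receptor P2ry1 (-1.13 ± 0.26) and the neuropeptide Y receptors Npy1r (-1.54 ± 0.40) and Npy5r (-1.72 ± 0.57) were the other falls, and the last was lost whichever library was left out. Nr3c2, the mineralocorticoid receptor, rose from 50.2 CPM (42.1 to 55.5) to 75.8 CPM (65.7 to 114), a log2 change of 0.74 ± 0.15.

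Besides Trpc5, the TRP channel that rose was Trpv2 (medians of 1.72 and 4.57 CPM, 1.55 ± 0.32). Trpm7, a channel with a kinase domain, fell from 37.1 CPM (32.1 to 44.4) to 24.6 CPM (23.1 to 26.8), a log2 change of -0.62 ± 0.10 (adjusted p = 7.21e-05), and Trpv4 (-0.91 ± 0.20), Trpm6 (-1.19 ± 0.31) and Pkd2 (-0.66 ± 0.15) fell as well, all with separate groups. These are 2 rises and 4 falls among 17 TRP genes tested of 23 in the tables (median -0.09), and 5 passed without torpid 5 and 6. The inwardly rectifying potassium channels Kcnj10 (medians of 32.9 and 15.2 CPM, -1.12 ± 0.16), Kcnj13 (-1.57 ± 0.32) and Kcnj2 (-1.62 ± 0.23) fell with no overlap of the groups. Kcnj10 and Kcnj13 had steps of -1.08 and -1.88 to late pre-hibernation. Kcnj2 had -0.31 there and -1.31 from late pre-hibernation to torpor. In all, 2 of 44 potassium channel genes rose and 5 fell (median -0.28), and 4 passed without torpid 5, without torpid 6 or without both.

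Of 43 genes of the Wnt and Notch families 8 fell and none rose, with a median of -0.33. Notum, which inactivates Wnt ligands, ranged over 5.04 to 16.6 CPM (median 9.28) on long photoperiod and 0.394 to 4.03 CPM (median 1.91) in torpor (-2.25 ± 0.42, adjusted p = 0.00033). The Wnt receptor Fzd2 (-0.90 ± 0.19), the coreceptor Lrp6 (-0.66 ± 0.17) and the Notch ligand Jag1 (-0.56 ± 0.13) fell, and so did the Notch target Hes5 (-1.14 ± 0.32, a call lost without torpid 6, adjusted p = 0.0522). The fall of Dkk3 was lost without 1 library in 8 of 12 cases (adjusted p up to 0.105, without long photoperiod 6). That of Rspo3 was lost without 1 library in 7 of 12 cases (adjusted p up to 0.156, without long photoperiod 5), and that of Dll1 without 1 library in 10 of 12 cases (adjusted p up to 0.0821, without torpid 5). Without long photoperiod 3, torpid 4, torpid 5 or torpid 6, or without torpid 5 and 6 together, 5 passed. Of 37 activin, TGF-beta and BMP genes, Fstl3, which binds activin, rose from 5.5 CPM (4.64 to 6.49) to 9.2 CPM (7.37 to 16.6), a log2 change of 0.93 ± 0.19 (adjusted p = 0.000977). The other 2 rises (Id3 and Grem1) and 2 falls (Bambi and Smad5) were each lost in at least 1 fit without 1 library, and without long photoperiod 1 a single gene of the list passed.

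Inhba, the activin beta A subunit, did not pass in torpor against long photoperiod (1.05 ± 0.39, adjusted p = 0.0892). Its level was 7.08 ± 2.26 CPM (mean ± SD) on long photoperiod, 61.7 ± 14.9 in late pre-hibernation, 31.9 ± 23.3 in interbout euthermia and 14.7 ± 9.46 in torpor. The step up to late pre-hibernation was 3.12 (adjusted p = 5.34e-06) and the step down from there to torpor -2.07 (adjusted p = 0.000764). Both use the late pre-hibernation libraries.

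Cell cycle genes gave 2 rises and 3 falls among 31 (median 0.03). Ccnd1, the cyclin of early G1, fell from 10.1 CPM (7.77 to 12.7) to 4.47 CPM (3.8 to 7.01), a log2 change of -1.02 ± 0.19 (adjusted p = 0.000391) and its kinase Cdk6 from 25.6 CPM (18.7 to 27.5) to 14.1 CPM (12 to 16.6), a log2 change of -0.82 ± 0.20, both without overlap. Aurka, Plk1 and E2f1 lost their calls in 4, 9 and 7 of the 12 fits without 1 library. Cdk6 lost its call without torpid 5 and 6 (-0.74, adjusted p = 0.0545). Of 30 antioxidant genes, Hmox1, which breaks down heme, rose from 40.6 CPM (34 to 46.1) to 67.3 CPM (66.6 to 88.2), a log2 change of 0.83 ± 0.17 (adjusted p = 0.00149), and the secreted peroxidase Gpx3 fell (-0.82 ± 0.21). Gpx8 rose and Nfe2l2 fell, calls lost in 9 and 2 of the 12 fits. Of 31 hypoxia and unfolded protein genes, Ankrd37, a target of hypoxia-inducible factors, fell from 20.2 CPM (17.1 to 23.2) to 7.42 CPM (5.57 to 7.92), a log2 change of -1.49 ± 0.15 (adjusted p = 9.96e-09). Ppp1r15a, a phosphatase subunit that restarts translation after stress, rose from 37.2 CPM (32.7 to 42.3) to 62.6 CPM (56.6 to 71), a log2 change of 0.76 ± 0.11 (adjusted p = 9.37e-06). P4ha2 fell (-0.62 ± 0.16) and Asns rose (0.42 ± 0.14, a call lost without 1 library in 9 of 12 cases, adjusted p up to 0.166, without torpid 5), which was at 0.25 (adjusted p = 0.41) without torpid 5 and 6. Of 48 junction and matrix genes Hapln3 and Ncan rose, and neither passed without torpid 6. They make up 4.17% of the list, below the 9.05% over all genes tested.

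Glucocorticoid and stress response genes had a median of 0.32, with 3 of 21 higher and 2 lower. Zbtb16, a transcription factor known to respond to glucocorticoids, ranged over 7.82 to 12.1 CPM (median 9.83) on long photoperiod and 17.2 to 60.3 CPM (median 21.6) in torpor (1.56 ± 0.28, adjusted p = 0.000257, and 0.99, adjusted p = 0.0184 without torpid 5 and 6). Gadd45b (1.35 ± 0.34) and Nfkbia (0.40 ± 0.12, a call lost without 1 library in 6 of 12 cases, adjusted p up to 0.0964, without long photoperiod 4) rose. Arrdc3 encodes an alpha-arrestin and fell from 94 CPM (84 to 124) to 36.9 CPM (31.2 to 42.6), with no overlap (-1.43 ± 0.20, adjusted p = 5.01e-06). Its step to late pre-hibernation was 0.37 (adjusted p = 0.411) and from there to torpor -1.79. Errfi1, an inhibitor of epidermal growth factor receptors, fell (medians of 14.4 and 6.25 CPM, -1.22 ± 0.22).

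**Figure D3:**
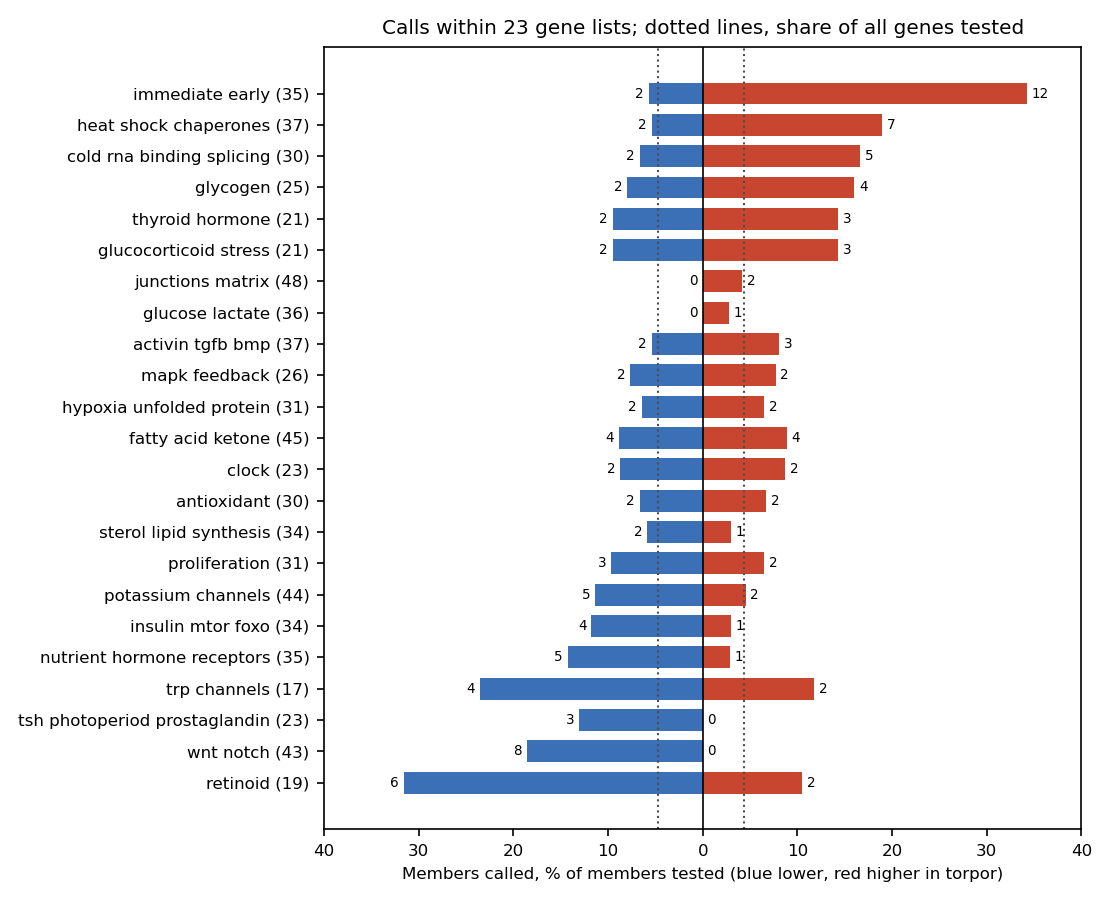
Share of tested members (number in parentheses) of 23 gene lists that passed, to the right higher and to the left lower in torpor, with the count at the end of each bar; dotted lines give the shares over all genes tested, 4.32% and 4.73%. Immediate early genes have the longest bar to the right (12 of 35) and retinoid genes the longest to the left (6 of 19).

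Pituitary tissue lies next to the strip, and its hormone messengers were among the falls. Of 9 pituitary markers tested, of 14 in the tables, 5 fell and none rose (median -2.60), and their summed level ran from 172 to 2414 CPM on long photoperiod and from 94.2 to 198 CPM in torpor. Gh1, growth hormone, ranged over 13.6 to 282 CPM (median 71.3) and 0 to 7.88 CPM (median 0.0833), and Cga, the shared alpha subunit of the pituitary glycoprotein hormones, over 5.7 to 97.2 CPM (median 33.5) and 0.138 to 5.63 CPM (median 0.444). Pomc was at 1985 CPM in long photoperiod 2 and at 101 to 268 CPM in the other 5, against 51.7 to 146 CPM (median 68.6) in torpor. Pou1f1, a pituitary transcription factor, was listed at 0 in 5 of the 6 torpid libraries. The falls were -6.00 ± 1.62 (Gh1), -4.89 ± 1.45 (Cga) and -2.60 ± 0.76 (Pomc). Without torpid 3 the change of Gh1 was -10.04 and that of Cga -6.48, without long photoperiod 2 that of Pomc was -1.17 (adjusted p = 0.316), and Gh1 lost its call without torpid 5 and 6 (adjusted p = 0.106). Cga lost its call without 1 library in 6 of 12 cases (adjusted p up to 0.071, without torpid 5), and Pomc lost its own without 1 library in 5 of 12 cases (adjusted p up to 0.316, without long photoperiod 2). Without torpid 5 and 6 the list had 1 called member, without torpid 1, 2 or 5 alone 2, and without long photoperiod 5, torpid 4 or torpid 6 alone 3. The thyrotropin beta gene Tshb was at a mean of 2.17 CPM and 1.82 CPM (adjusted p = 0.796). The part of pituitary RNA in the other differences was not tested.

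Among 17 hypothalamic neuropeptide genes 5 fell and none rose (median -0.28). Pomc is also counted among the pituitary markers above, and its call was lost without long photoperiod 2. The others were Penk, which encodes enkephalins (medians of 10.8 and 3.47 CPM, -1.58 ± 0.26), Kiss1, which encodes kisspeptin (-1.62 ± 0.35), Npvf (-3.52 ± 0.77) and Ghrh (-1.09 ± 0.34). The call of Ghrh was lost without 1 library in 6 of 12 cases (adjusted p up to 0.0896, without torpid 1). Kiss1, Npvf and Ghrh were low, with means of 4.96, 2.98 and 4.21 CPM on long photoperiod and 1.60, 0.257 and 1.98 CPM in torpor. Neuron markers had no member that passed by edgeR (0 of 20, with 0 by DESeq2, 1 by limma voom and 1 at an unadjusted p under 0.05), and a median of -0.17. Of the neuropeptide genes 3 passed without torpid 1, 2 or 6 alone. Alas2, the heme synthesis enzyme of red blood cells, fell from 12.3 CPM (8.44 to 17) to 1.34 CPM (0.528 to 3.09), a log2 change of -3.11 ± 0.79 (adjusted p = 0.00975). It was the 1 of 3 erythrocyte markers tested that passed, and was at -3.13 (adjusted p = 0.0565) without torpid 5 and 6. Of 13 endothelial markers Esam (1.73 ± 0.35) and Kdr (0.76 ± 0.23) rose, and both lost their calls without torpid 5 and 6 (1.03, adjusted p = 0.0647 and 0.47, adjusted p = 0.328). The endothelial markers summed to between 90.9 and 121 CPM on long photoperiod and 101 and 191 CPM in torpor. Esam (means of 9.411 and 31.4 CPM) and Kdr (33.15 and 56.15 CPM) are part of these sums. The list median was 0.18, with 9 of 13 above 0 and 11 not called, among them Pecam1 (-0.37 ± 0.27) and Cldn5 (0.04 ± 0.40). The part of endothelial RNA in other rises was not tested. The astrocyte markers that passed were Ntsr2 (medians of 229 and 85.2 CPM, -1.35 ± 0.25) and Gpr37l1, 2 of 14, both lower. The list as a whole had a median of 0.11, with 9 of 14 members above 0.

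Of 24 tanycyte markers Rax, Mest and Ptn fell and none rose (median 0.03). Rax, a homeobox factor of tanycytes, ranged over 61 to 169 CPM (median 129.6) and 26.4 to 108 CPM (median 62.3), a log2 change of -0.94 ± 0.30 (adjusted p = 0.0397), and its call was lost without 1 library in 7 of 12 cases (adjusted p up to 0.11, without torpid 6). None of the 3 passed without torpid 5 and 6. Vim (0.16 ± 0.13, adjusted p = 0.528), Nes (0.32 ± 0.26, adjusted p = 0.553) and Gpr50 (0.57 ± 0.48) did not pass. Without the 3 libraries rich in ribosomal RNA Nes passed (0.30, adjusted p = 0.0322), and Vim and Gpr50 did not. Of 45 motile cilia genes Dnai1 rose (0.44 ± 0.14) and lost its call without 1 library in 7 of 12 cases (adjusted p up to 0.1, without torpid 1). Des, a muscle filament gene among the 16 mural cell and fibroblast markers, was the 1 of them that passed (0.85 ± 0.24, a call lost without 1 library in 4 of 12 cases, adjusted p up to 0.0705, without torpid 5). The called shares of the motile cilia and the mural lists were 2.22% and 6.25%, below the 9.05% over all genes tested. Microglia and oligodendrocyte markers had 0 of 16 and 0 of 14 called members by edgeR and by DESeq2, 1 each by limma voom, and 1 and 2 at an unadjusted p under 0.05.

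The difference was then divided into steps, of which late pre-hibernation against long photoperiod and torpor against interbout euthermia share no library. Late pre-hibernation against long photoperiod had 642 called genes (3.58%), with 403 higher (2.25%) and 239 lower (1.33%). Torpor against late pre-hibernation had 797 (4.45%), with 292 higher (1.63%) and 505 lower (2.82%). It shares the late pre-hibernation libraries with the step before and the torpid libraries with the next, so its values are not independent of theirs. Torpor against interbout euthermia had 728 (4.06%), with 202 higher (1.13%) and 526 lower (2.93%). Between them stands interbout euthermia against late pre-hibernation, with 0 genes called by edgeR (0%), 32 by DESeq2, 550 by limma voom and 1103 with an unadjusted p under 0.05. Interbout euthermia 6 was 1 of the 3 libraries rich in ribosomal RNA (7.21% of its counts, with 14.3% mitochondrial). It is kept in all interbout euthermia levels and steps given here, so the 0 calls do not show that the 2 states are alike. Late pre-hibernation against long photoperiod and torpor against interbout euthermia had 25 called genes in common. That is 3.89% of the genes called in the former, near the 4.06% of all genes called in the latter. It is 3.43% of those called in the latter, near the 3.58% of all genes called in the former. The former step differs in ambient temperature and labelled age as well as photoperiod. In 15 of them the sign was the same and in 10 it was opposite. Without the 3 libraries rich in ribosomal RNA 164 genes were called in both, and by limma voom 320. Across all genes tested Pearson's r between the 2 steps was 0.031, where genes are not independent replicates.

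Some genes passed with the same sign in both of these steps, which leave out the step from late pre-hibernation to interbout euthermia and so do not sum to the whole difference. Fam207a ranged over 82.6 to 199 CPM (median 141) on long photoperiod and 39.8 to 73.2 CPM (median 51) in torpor, with steps of -1.13 and -0.74. St6gal1, a sialyltransferase, ranged over 33.6 to 45 CPM (median 38.7) and 13 to 23.7 CPM (median 17.1), with -0.76 and -0.81. Ptges had -2.52 and -1.57, Apold1, an endothelial early gene, 0.92 and 0.91, and Prr5, of the second mTOR complex, 1.22 and 0.86. These 5 passed in torpor against long photoperiod, from -1.76 ± 0.45 (Ptges) to 1.58 ± 0.23 (Apold1). Without torpid 5 and 6 the calls of Ptges, P2ry1, P4ha2, Phkg2, Rdh10, Dhrs3, Klf10, Clk4, Ppp1r3e, Cpt1c, Fabp7, Npy1r, Trpm6, Gadd45b and Tsc2 in torpor against long photoperiod were lost, with adjusted p from 0.0518 (Tsc2) to 0.138 (Rdh10).

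Other genes passed with opposite signs in the same steps. Ddit4, an inhibitor of mTOR signalling, was at 87.2 ± 7.93 CPM on long photoperiod, 139 ± 24.4 in late pre-hibernation, 157 ± 20.4 in interbout euthermia and 89.4 ± 26.4 in torpor. Its steps were 0.67 and -0.81, and the whole difference was 0.03 ± 0.15 (adjusted p = 0.937). Ciart, a clock repressor, had steps of -1.37 and 1.02 and a whole difference of -0.29 ± 0.29 (adjusted p = 0.655). Phlda1 (0.69 and -0.62), the Myc antagonist Mxd1 (0.59 and -0.55) and Arhgap10 (0.62 and -0.59) likewise did not pass in torpor against long photoperiod, with adjusted p from 0.834 to 0.978. Lrat showed another order. Its step to late pre-hibernation was -4.14, and from there to torpor it was 1.99 (adjusted p = 0.00134), and both use the late pre-hibernation libraries. Interbout euthermic animals were at 15.9 ± 11.1 CPM against 17.2 ± 6.12 in torpor (torpor minus interbout euthermia 0.10, adjusted p = 0.947).

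**Figure D4:**
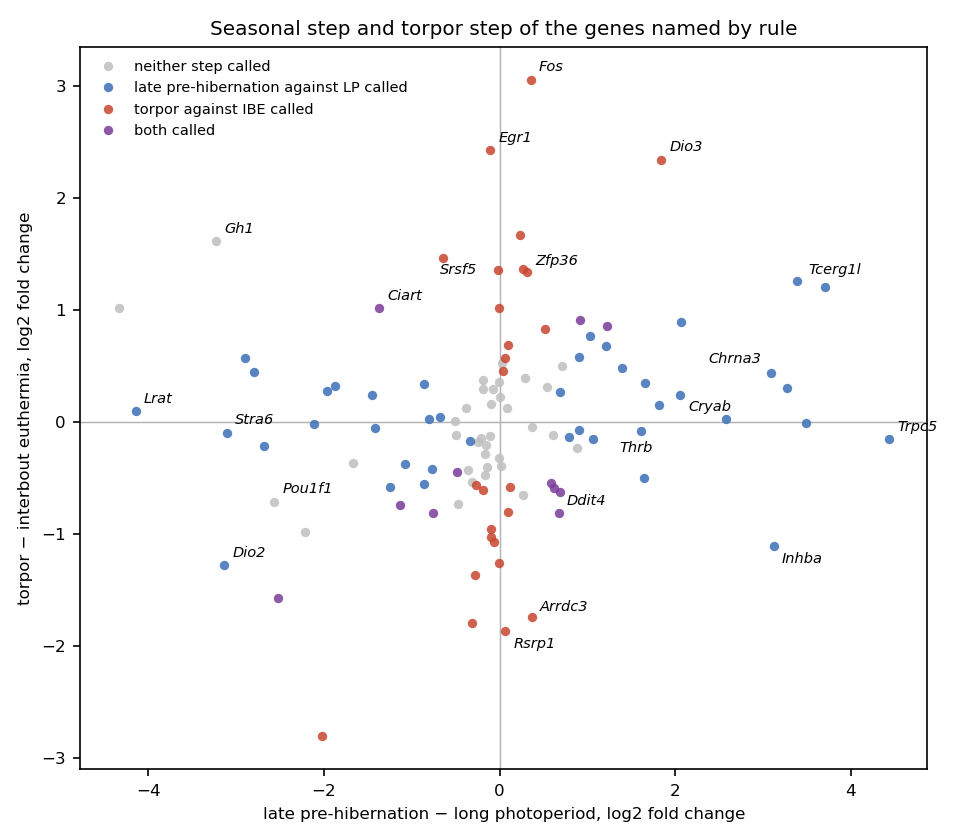
Each point is 1 gene chosen by the naming rule, at its log2 fold change from long photoperiod to late pre-hibernation (horizontal) and from interbout euthermia to torpor (vertical), comparisons that share no library; colours give the step in which it passed. Trpc5, Chrna3, Cryab and Stra6 lie along the horizontal axis, Fos, Srsf5, Rsrp1 and Arrdc3 along the vertical axis, and few points pass in both.

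Gene length and kind were related to the direction of change. Genes were divided by exonic length into 5 groups of nearly equal size. Among the longest (5002 bases and more) 3.24% rose and 7.37% fell, and their median log2 fold change was -0.09. Among the shortest (up to 1424 bases) 3.76% rose and 2.12% fell, with a median of 0.05. Torpor against interbout euthermia had medians of -0.12 and 0.07 in these groups, and late pre-hibernation against long photoperiod -0.02 and -0.03. Of 2281 long noncoding RNA genes 116 rose (5.09%) and 26 fell (1.14%), with a median of 0.10, and of 15609 protein-coding genes 655 rose (4.2%) and 822 fell (5.27%). RNA integrity was given in the labels as a range of 7 to 9 for all samples, and its part in the length pattern was not tested.

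**Figure D5:**
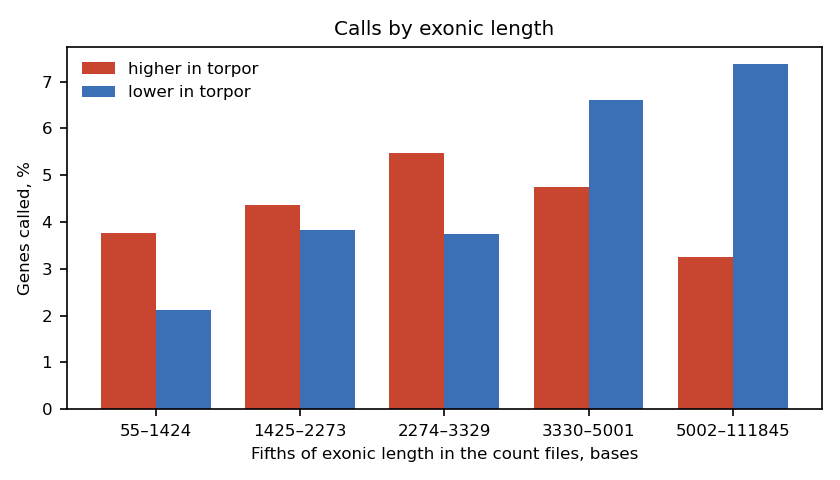
Percent of genes tested that passed, higher (red) and lower (blue) in torpor than on long photoperiod, in 5 groups by the exonic length given in the count files. The share of falls grows from 2.12% among the shortest genes to 7.37% among the longest, and the share of rises is highest in the middle group (5.47%).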

How the data were processed

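RNA from laser-captured ependymal strips was sequenced in 36 libraries, of which the 6 torpid and 6 long photoperiod libraries are compared here. The deposited values are raw counts per gene, 1 table per library. Per the file headers the authors counted paired reads on exons by gene with featureCounts 2.0.1, without strand, against the RefSeq annotation of the golden hamster, so overlapping and antisense genes cannot be told apart. The alignment names in the headers point to STAR, whose version is not given in the sources used. The tables give each gene's coordinates, and genes are named here by symbol only.

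The tables hold 32340 genes, and 17926 passed edgeR's expression filter. The main test was edgeR's quasi-likelihood test (edgeR 4.0.16, R 4.3.3) with TMM factors, 1 coefficient per group over all 36 libraries, and Benjamini-Hochberg adjustment over all genes tested, called at an adjusted p under 0.05. Log2 fold changes are torpor minus long photoperiod, as edgeR's test gave them at its default prior count, and are given ± SE. The SE is the absolute log2 fold change divided by the square root of the test's F statistic. A prior count of 2 was used for log2 CPM alone. On simulated data with 200 changed genes among 17926, the test recovered 79% of 2-fold and 88% of 4-fold changes, and 1.76% of its calls were false. The changed genes were drawn from those above a minimum mean count. Counts were drawn independently, without other group differences and without deviations that many genes of a library share. These shares therefore describe the simulation and not the calls in these data. The protocol gives 6 brains per group, so libraries were taken as separate animals, no 2 libraries were identical, and no count column was left unused.

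Genes were named by rule: the 8 largest rises and 8 largest falls with a mean log2 CPM no lower than 1, the 3 smallest p of each list, a fixed set, and up to 5 of each sign called in both steps. Other called list members, and genes said to be picked after their values were seen, were added. Some genes counted in the lists are not reported here by name. The comparison, the gene lists and the rule were chosen with earlier results of these data known, so no count over a list is independent evidence. Replicate numbers were not taken to pair the animals. The 25 alternatives covered normalization, filters, DESeq2 1.42.0, limma 3.58.1 voom, covariates, subsets of libraries, and each library left out.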

Additional observations from a re-analysis of the deposited data

Results flagged for a closer look

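Single libraries lay apart from the other 5 of their group in 20 of 232 groups examined, by Dixon's test of the gap to the nearest library against the whole range, which chance passes in about 1 group in 20. Levels are in CPM.

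Long photoperiod 5 stood apart in Dio2 (11.5, others 35.4 to 68.4), Lrat (11.8, others 59.9 to 130), Gpr37l1 (811, others 1068 to 1258), Kcnj10 (23.6, others 31.2 to 35.7), Dnase2b (5.41, others 1.99 to 2.89) and Thbs4 (169, others 3.75 to 7.29). In Dio2, Lrat, Gpr37l1, Kcnj10 and Dnase2b it lay on the side of the torpid libraries. Other long photoperiod libraries stood apart in Pomc (1985 in long photoperiod 2, others 101 to 268), Jag1 (14.0 in long photoperiod 2, others 18.5 to 20.6), Thrb (44.6 in long photoperiod 6, others 27 to 31.8), Cdk6 (18.7 in long photoperiod 6, others 24.5 to 27.5) and Des (0.542 in long photoperiod 1, others 1.35 to 1.78).

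Torpid 4 stood apart in Tshr (57.9, others 97.3 to 117), Spred1 (21.1, others 16 to 16.9), Pou1f1 (0.0438, listed at 0 in the others) and the mitochondrial share of counts (3.18%, others 2.10 to 2.49%). The other torpid values were Zfp36 in torpid 1 (85.0, others 50.6 to 57.9), Fzd2 in torpid 1 (5.13, others 6.84 to 7.87), Gh1 in torpid 3 (7.88, others 0 to 0.219), Hmox1 in torpid 5 (88.1, others 66.6 to 69.6) and Ankrd37 in torpid 6 (5.57, others 7.24 to 7.92).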

How the results depend on the processing

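The numbers of genes higher and lower in torpor were 457 higher with no filter beyond 1 count, 1329 and 1605 in a fit of the 12 libraries alone, 1680 and 2107 without the 3 libraries rich in ribosomal RNA, 322 and 514 with long photoperiod 1 to 3 alone, 256 and 346 with 4 to 6 alone, 2100 and 2175 by limma voom, and 333 and 530 without torpid 5 and 6. DESeq2 gave 1025 and 1141. Leaving out 1 library gave 513 to 758 higher and 657 to 848 lower. The subsets hold fewer samples; the cause of the other shifts was not tested. Of all calls 47.7% were of higher genes in the main test, and 38.6% without torpid 5 and 6.

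No gene called in both the main test and an alternative changed direction. Of 113 genes named by rule, 31 lost their call without torpid 5 and 6. Genes called in both steps numbered 13 with no filter, 164 without the ribosomal RNA-rich libraries, 12 and 9 with long photoperiod 1 to 3 and 4 to 6, 62 with marker covariates, 320 by limma voom and 63 by DESeq2, against 25. Without 1 library they numbered 18 to 32. Torpor against late pre-hibernation (292 higher, 505 lower) gave 159 higher with no filter, 969 and 1425 without the ribosomal RNA-rich libraries, 1637 and 1812 by limma voom, 488 higher by DESeq2, and 187 (without torpid 1) to 273 higher and 400 to 516 lower without 1 library.

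Correlations of same-numbered deviations in torpid and long photoperiod libraries ran from -0.0829 to 0.1655, the highest for replicate 6. Differently numbered libraries were not compared, so these values cannot tell whether replicate numbers pair the samples. With a replicate block 702 genes were higher and 762 lower, and 1424 calls were shared with the main test.

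Signs changed in small log2 differences that were not called, and in Thbs4. With long photoperiod 4 to 6 alone they were 0.06 (Arhgap10), -0.04 (Ddit4), -0.01 (Pdk4), 0.05 (Phlda1) and -0.01 (Slc16a1). With 1 to 3 alone they were 0.01 (Ciart) and 0.21 (Thbs4). Arhgap10 was 0.01 with covariates and 0.00 to 0.06 without long photoperiod 1, torpid 1, torpid 2 or torpid 4 (0.03, 0.00, 0.01 and 0.06). Ddit4 was -0.05 by limma voom, -0.26 without torpid 5 and 6, and 0.00, -0.04 and -0.13 without long photoperiod 3, torpid 5 and torpid 6. Pdk4 was -0.03, -0.03 and -0.07 without long photoperiod 1, torpid 3 and torpid 4. Thbs4 was 0.07 without long photoperiod 5. Without 1 library the ranges were -0.17 to 0.06 (Arhgap10), -0.13 to 0.08 (Ddit4), -0.07 to 0.11 (Pdk4) and -2.74 to 0.07 (Thbs4).

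Depth was alike in both groups and limits low genes most: Gh1, Cga, Npvf and Rspo3 rest on few counts in torpor. Photoperiod, temperature, age and torpor cannot be told apart in this comparison alone.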

Other observations

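Several genes best known from muscle were higher in torpor, and were picked after their values were seen. Muscle genes were not counted as a set. Of smooth muscle genes among the mural markers, Acta2 (-0.33, edgeR adjusted p = 0.483), Myh11 (-0.08, 0.871) and Tagln (1.13, 0.323) did not pass. Cav3, the muscle caveolin, ranged over 0.555 to 1.32 CPM (median 1.11) on long photoperiod and 1.48 to 5.62 CPM (median 3.48) in torpor, without overlap (1.72 ± 0.29, edgeR adjusted p = 0.00012). Itga7, a laminin-binding integrin, ranged over 13.6 to 18.1 CPM (median 16.7) and 24.5 to 38.3 CPM (median 33.2), also without overlap (0.95 ± 0.14, adjusted p = 1.89e-05). Fhl3, a LIM domain protein, ranged over 2.6 to 5.72 CPM (median 2.89) and 5.28 to 26.4 CPM (median 8.00), a log2 change of 1.84 ± 0.33, and was at 0.95 (adjusted p = 0.0325) without torpid 5 and 6. Its levels in torpid 1 and 4 lay within the long photoperiod range. Perm1, a regulator of muscle metabolism, was listed at 0 in 5 of the 6 long photoperiod libraries and ranged over 0.212 to 2.73 CPM (median 0.856) in torpor. Steps from long photoperiod to late pre-hibernation were 1.64 (Cav3), 0.45 (Itga7) and 1.81 (Fhl3).

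Other genes picked after their values were seen moved between late pre-hibernation and torpor. Wsb1, a substrate receptor of a ubiquitin ligase, rose from 23 CPM (18.6 to 24.9) to 52.1 CPM (41.1 to 62.3), a log2 change of 1.24 ± 0.21, with 1.44 from late pre-hibernation. Kctd21 fell from 8.44 CPM (6.12 to 8.87) to 2.28 CPM (2.04 to 3.18), a log2 change of -1.68 ± 0.20, with -1.94. Nfkbiz, a nuclear regulator of NF-kappa-B targets, fell from 3.38 CPM (2.84 to 5.99) to 0.91 CPM (0.415 to 1.26), a log2 change of -2.11 ± 0.36, with -1.34. The groups of these 3 genes did not overlap.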
